A study of Mus musculus with 5 samples.

Results

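Phosphate, vitamin D and klotho genes were examined in kidney cortical tissue of Fnip1 null and wildtype mice. The 10 genes were chosen by symbol from the 24421 genes counted: the phosphate transporters Slc34a1, Slc34a3, Slc20a1 and Slc20a2, the vitamin D enzymes Cyp27b1 and Cyp24a1 with the receptor Vdr, and Kl, Fgfr1 and Pth1r. Every one passed the filter on low counts. The series holds RNAseq of 3 Fnip1 null mice (Fnip1-/-, mice 8637, 9210 and 9121) and 2 wildtype mice (labelled Fnip1+/+, mice 9055 and 9056). Each untreated mouse gave 1 library, and all were on the C57BL6J background. The study's text gives 3 wildtype mice for RNAseq, whereas 2 are in the series. The null allele came from chemical mutagenesis and removes Fnip1 in every tissue, so a kidney value need not come from loss of the gene in the kidney. In parts of the study's text the control mice are called Fnip1+/-, and the labels give neither the sex nor the age of a mouse. For age, the study's text gives a range for the RNAseq mice but no value per mouse. Each value is the average over all cells of the cortex, in which fewer cells of a type and less RNA per cell cannot be told apart.

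Phosphate is filtered in the glomerulus and taken back by the proximal tubule, mainly through the sodium-coupled transporters NaPi-IIa (Slc34a1) and NaPi-IIc (Slc34a3) of the brush border. Parathyroid hormone, acting through Pth1r, and FGF23, acting through an FGF receptor and its co-receptor klotho (Kl), lower this uptake. The same tubule makes active vitamin D with Cyp27b1 and breaks it down with Cyp24a1, and active vitamin D acts through the nuclear receptor Vdr.

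The libraries held between 15799114 and 19132145 gene counts, and 3 counts corresponded to between 0.158 and 0.186 normalized CPM, which are counts scaled by TMM to a common library size. Fnip1 was measured at 21.0, 16.9 and 16.0 CPM in null mice 8637, 9210 and 9121 and at 51.8 and 48.7 CPM in wildtype mice 9055 and 9056, a log2 fold change of -1.48 (SE 0.138, adjusted p = 0.0330 by edgeR's quasi-likelihood test). Mouse 9121 stood apart, with 5954 counts of Xist against 3 to 24 in the other mice and 0 to 7 counts of each of Ddx3y, Uty, Eif2s3y and Kdm5d against 291 to 885. Xist lies on the X chromosome, and Ddx3y, Uty, Eif2s3y and Kdm5d lie on the Y chromosome. By these counts mouse 9121 was female and the other mice were male. No wildtype mouse was female by these counts, so whatever sex brings cannot be told apart from the genotype in that mouse. With mouse 8637 left out, 911 genes passed the threshold in place of 73.

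Per kilobase of annotated exon, the 10 genes spanned 3 orders of magnitude in wildtype cortex. Slc34a1 had the highest level at 1290 CPM per kb, followed by Pth1r at 282, Kl at 119 and Vdr at 66.7 CPM per kb. Slc34a3 at 22.5, Cyp24a1 at 18.4, Slc20a2 at 12.8, Fgfr1 at 7.12 and Slc20a1 at 5.51 CPM per kb came next, and Cyp27b1 was lowest at 0.619 CPM per kb. Over the 5 mice, the ranges of Slc34a1, Pth1r, Kl and Cyp27b1 overlapped no other member's range. Cyp24a1, which ran from 9.25 to 43.4 CPM per kb, overlapped Vdr, Slc34a3 and Slc20a2, and Fgfr1 overlapped Slc20a1, so the order of these neighbours is not set beyond the spread of the mice.

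The start regions of Slc34a1, Kl and Cyp27b1 are shown because they are the genes that carry phosphate uptake, the FGF23 co-receptor and vitamin D activation, and because they hold no annotated exon. Each is the 250 bases before the RefSeq start, 5′ to 3′ on the gene's strand, on GRCm38.p6, at chr13:55399398-55399647 (plus strand), chr5:150952357-150952606 (plus strand) and chr10:127047996-127048245 (plus strand). Capitals mark the hexamers AGGTCA and AGTTCA, and the related GGGTCA and GGTTCA, the core read by nuclear receptors such as Vdr, the letters TATAAA or TATATA, and CCAAT, each searched on both strands.
Slc34a1: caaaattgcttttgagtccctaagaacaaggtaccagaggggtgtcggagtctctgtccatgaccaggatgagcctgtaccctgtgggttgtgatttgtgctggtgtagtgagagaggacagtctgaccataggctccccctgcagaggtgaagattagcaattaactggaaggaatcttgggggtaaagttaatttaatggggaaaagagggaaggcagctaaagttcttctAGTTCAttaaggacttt
Kl: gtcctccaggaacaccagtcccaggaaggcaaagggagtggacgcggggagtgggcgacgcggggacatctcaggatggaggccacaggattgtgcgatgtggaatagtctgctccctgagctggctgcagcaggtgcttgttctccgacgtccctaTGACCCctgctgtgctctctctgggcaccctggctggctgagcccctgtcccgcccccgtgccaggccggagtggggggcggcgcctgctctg
Cyp27b1: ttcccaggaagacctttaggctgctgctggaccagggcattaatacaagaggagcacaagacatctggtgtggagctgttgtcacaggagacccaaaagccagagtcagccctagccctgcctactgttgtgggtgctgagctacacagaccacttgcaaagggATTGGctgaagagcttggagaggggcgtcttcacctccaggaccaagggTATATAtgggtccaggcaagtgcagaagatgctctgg
In the Slc34a1 window AGTTCA began at base 234 on the plus strand. This window lies inside the gene as annotated by GENCODE M21, which starts at 55398187. The Kl and Cyp27b1 windows lie before the annotated starts. In the Kl window GGGTCA began at base 158 on the minus strand. The Cyp27b1 window held none of the nuclear receptor hexamers, but held TATATA from base 214, which reads the same on both strands, and CCAAT from base 165 on the minus strand. No capitalised match overlapped another. Of 32851 promoter windows of this length, 38.6% held a nuclear receptor hexamer, 15.6% a TATA match and 33.8% CCAAT. A pair of these hexamers 3 bases apart, the spacing known for Vdr with its partner RXR, was in 0.0396% of windows and in none of those found for the members. The table held 7 of the 10 members, without Slc20a2, Cyp24a1 and Fgfr1.

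None of the 10 genes passed an FDR of 5% with a change of at least 2-fold in edgeR's quasi-likelihood test, against 0.526% of the 13874 genes tested (0.404% higher and 0.123% lower in null mice). None passed at the FDR alone, against 0.678% of all genes (0.526% higher and 0.151% lower). At an unadjusted p below 0.05 there were 5 of the 10 (Slc34a3, Slc20a2, Vdr, Fgfr1 and Pth1r), against 25.1% of all genes. At the FDR alone, edgeR's exact test called 2 of the 10, Slc34a3 and Vdr, against 9.77% of all genes, and DESeq2 called 3, these and Pth1r, against 10.2%. The groups did not overlap for 7 of the 10 genes, against 45.9% of all genes. Of these 7, Slc34a3, Cyp27b1 and Fgfr1 lay higher in every null mouse (22.9% of all genes) and Slc34a1, Slc20a2, Vdr and Pth1r lay lower (23.0% of all genes). Log2 fold changes were positive for 5 genes and negative for 5, with a median of 0.05 against 0.0035 over all genes tested. Every adjusted p-value given with a fold change below comes from edgeR's quasi-likelihood test with Benjamini-Hochberg adjustment over all genes tested, unless another test is named.

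**Figure D1:**
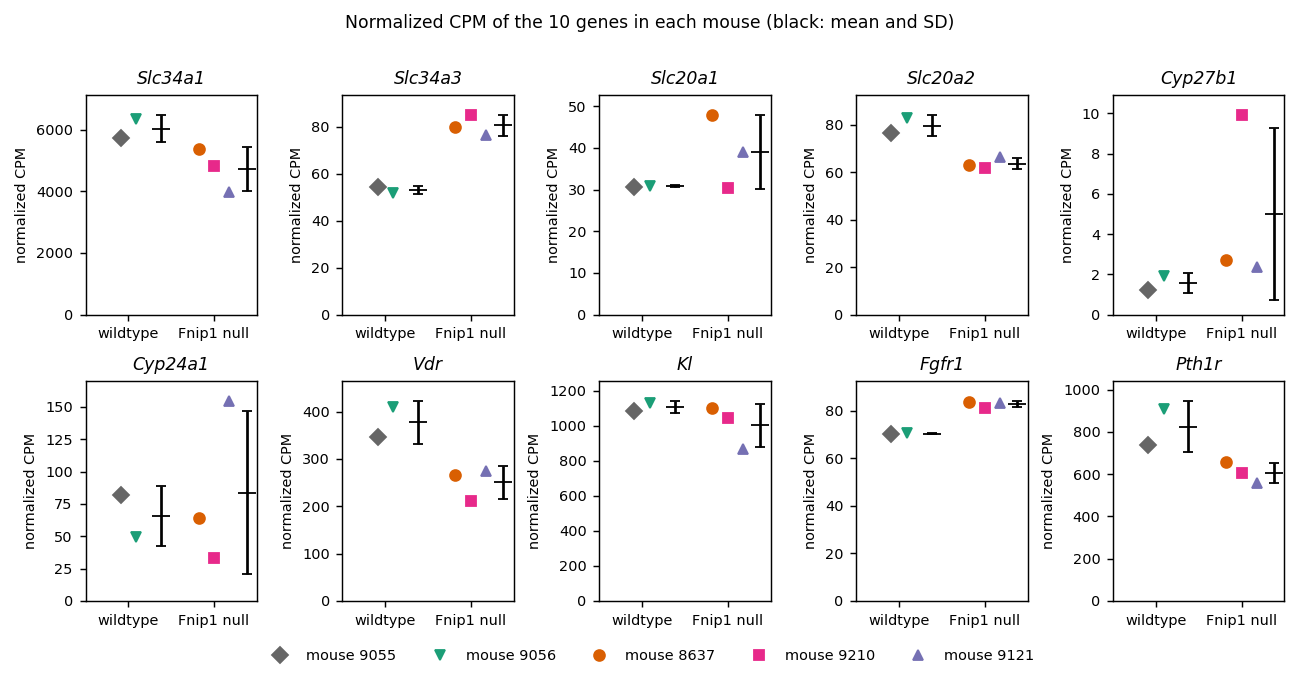
Normalized CPM (vertical axes, each from 0) of the 10 genes in each of the 2 wildtype and 3 Fnip1 null mice, with the mean and SD of each genotype in black. Slc34a3 sits between 76.5 and 85.0 CPM in null mice and at 51.9 and 54.4 CPM in wildtype mice, while Cyp27b1 and Cyp24a1 each have 1 null mouse far above the others.

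Among the phosphate transporters, the proximal tubule pair lay on opposite sides of the wildtype level and only the scarcer of them came near the threshold. Slc34a3 (chr2:25228898-25234364, minus strand, GRCm38) was measured at 80.0, 85.0 and 76.5 CPM in null mice 8637, 9210 and 9121 and at 54.4 and 51.9 CPM in wildtype mice 9055 and 9056. All 3 null mice lay above both wildtype mice, with a mean of 80.5 ± 4.30 (SD, n = 3) against 53.2 ± 1.72 CPM (SD, n = 2). This is a log2 fold change of 0.60 (SE 0.0899, 95% interval 0.38 to 0.82), or 1.51-fold, with an adjusted p of 0.0538. The adjusted p was 0.00116 by edgeR's exact test and 0.000148 by DESeq2, and 0.0440 by the quasi-likelihood test without TMM scaling. Leaving out 1 mouse kept the log2 fold change between 0.56 and 0.63, with adjusted p-values of 0.0137 without mouse 8637 and 0.0438 without 9121, and of 0.222, 0.213 and 0.536 without 9210, 9055 and 9056.

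Slc34a1 (chr13:55398187-55415592, plus strand), the main phosphate transporter of the brush border, was measured at 5368, 4821 and 3963 CPM in null mice 8637, 9210 and 9121 and at 5717 and 6346 CPM in wildtype mice 9055 and 9056. Every null mouse lay below both wildtype mice, but the highest null mouse was close to the lower wildtype mouse. Its log2 fold change of -0.35 (SE 0.305, 95% interval -1.09 to 0.38, adjusted p = 0.497) does not hold up against the spread between mice. Exons of Slc34a1 share 545 bases with Pfn3 on the other strand. Slc20a1 (up to 320 bases), Slc20a2, Cyp24a1, Fgfr1 and Pth1r also share exon bases with a gene on the other strand. The library kit is not stated to mark strand, so reads from such a pair cannot be told apart.

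The ratio of the pair within a library does not depend on scaling between libraries. Slc34a3 counts were 0.0149, 0.0176 and 0.0193 of Slc34a1 counts in null mice 8637, 9210 and 9121 and 0.00952 and 0.00819 of them in the wildtype mice 9055 and 9056. The ratio was higher in 3 of 3 null mice, by 0.96 on the log2 scale (log2 means -5.86 ± 0.189 against -6.82 ± 0.153, SD, n = 3 and 2). A two-sided exact permutation test gave p = 0.1, which is the smallest p that 3 mice against 2 allow, and 0.2 after adjustment over the 4 ratios computed.

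Slc20a1 (PiT-1) and Slc20a2 (PiT-2) are the sodium-phosphate carriers found in most cell types. Slc20a2 (chr8:22476788-22569612, plus strand) was measured at 63.0, 61.7 and 66.2 CPM in null mice 8637, 9210 and 9121 and at 76.4 and 82.8 CPM in wildtype mice 9055 and 9056. All null mice lay lower, with a log2 fold change of -0.32 (SE 0.0864, 95% interval -0.53 to -0.11, adjusted p = 0.105). Slc20a1 (chr2:129198764-129211616, plus strand) was measured at 47.9, 30.3 and 39.0 CPM in null mice 8637, 9210 and 9121 and at 30.6 and 30.9 CPM in wildtype mice 9055 and 9056. Its groups overlapped through mouse 9210, and the log2 fold change was 0.34 (SE 0.192, adjusted p = 0.308). Without TMM scaling the Slc20a1 groups no longer overlapped. Slc20a2 counts were 1.31, 2.04 and 1.70 times those of Slc20a1 in null mice 8637, 9210 and 9121 and 2.50 and 2.67 times in the wildtype mice 9055 and 9056, an exact permutation p of 0.2 (0.267 adjusted).

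The vitamin D enzymes varied most among the null mice. Cyp27b1 (chr10:127048250-127053006, plus strand), the last step in making active vitamin D, was scarce, with 46, 167 and 45 counts in null mice 8637, 9210 and 9121 and 20 and 34 counts in the wildtype mice 9055 and 9056. These correspond to 2.71, 9.93 and 2.38 CPM in null and 1.24 and 1.94 CPM in wildtype mice. Mouse 9210 stood far above the others, and the remaining null mice lay only just above wildtype mouse 9056. The exact Poisson 95% interval, which covers counting error only, was 1.98 to 3.62 CPM for mouse 8637 and 1.73 to 3.18 CPM for 9121, and both overlapped the interval of 1.35 to 2.72 CPM for wildtype 9056. For mouse 9210 it was 8.48 to 11.6 CPM, apart from all others.

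The mean of Cyp27b1 was 5.01 ± 4.27 CPM in null and 1.59 ± 0.497 CPM in wildtype mice (SD, n = 3 and 2). The log2 fold change was 1.63 (SE 0.735, 95% interval -0.15 to 3.41, adjusted p = 0.226), and without mouse 9210 it was 0.67. Mouse 9210 also had the highest summed level of the adipocyte markers Adipoq, Plin1, Cfd and Retn, at 191 CPM against 3.48 to 68.0 CPM in the other mice. The part of these cells in the Cyp27b1 value was not tested.

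Cyp24a1 (chr2:170482708-170497145, minus strand), which inactivates vitamin D and is a textbook target of Vdr, was measured at 63.8, 32.9 and 154 CPM in null mice 8637, 9210 and 9121 and at 82.1 and 49.2 CPM in wildtype mice 9055 and 9056. The null mice lay on both sides of the wildtype mice, and the highest value was in mouse 9121, the library with Xist. Over all mice its log2 fold change was 0.35 (SE 0.609, 95% interval -1.12 to 1.82, adjusted p = 0.748), and it was -0.44 without mouse 9121, so no direction can be given for this gene.

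Cyp24a1 counts were 23.3, 3.31 and 64.3 times Cyp27b1 counts in null mice 8637, 9210 and 9121 and 64.5 and 24.9 times in the wildtype mice 9055 and 9056. Mice 8637 and 9121 thus lay close to the wildtype range and mouse 9210 far below it. The difference of -1.23 on the log2 scale had an exact permutation p of 0.4 (0.4 adjusted), and without mouse 9210 it was -0.051.

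**Figure D2:**
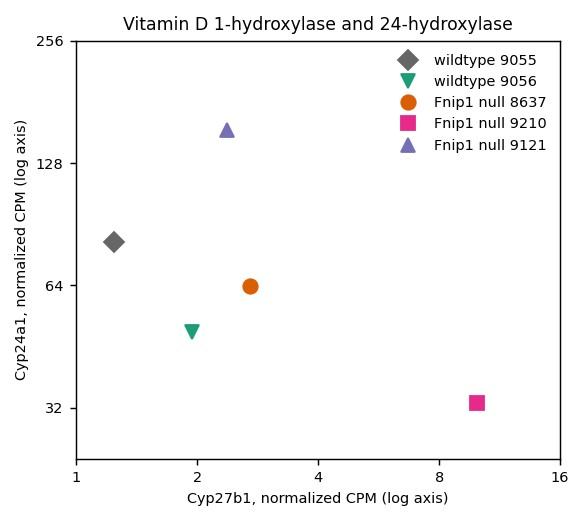
Normalized CPM of Cyp27b1 (horizontal, log axis) against Cyp24a1 (vertical, log axis), 1 point per mouse. Mouse 9210 has the highest Cyp27b1 (9.93 CPM) and the lowest Cyp24a1 (32.9 CPM), and mouse 9121 the highest Cyp24a1 (154 CPM) with Cyp27b1 at 2.38 CPM.

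Vdr (chr15:97854425-97910630, minus strand), the vitamin D receptor, was measured at 267, 211 and 274 CPM in null mice 8637, 9210 and 9121 and at 345 and 409 CPM in wildtype mice 9055 and 9056. All null mice lay below both wildtype mice, with a mean of 251 ± 34.5 (SD, n = 3) against 377 ± 45.0 CPM (SD, n = 2). The log2 fold change was -0.59 (SE 0.148, 95% interval -0.95 to -0.23, adjusted p = 0.0985), with an adjusted p of 0.0331 by edgeR's exact test and 0.0119 by DESeq2. With 1 mouse left out it ran from -0.71 to -0.46, and the adjusted p was 0.0378 without mouse 8637 and 0.0915, 0.284, 0.224 and 0.567 without 9121, 9210, 9055 and 9056.

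Of the klotho and hormone receptor genes, Pth1r and Fgfr1 had groups that did not overlap and Kl did not. Kl (chr5:150952607-150993817, plus strand), the co-receptor that lets FGF23 bind its receptor, was measured at 1101, 1044 and 866 CPM in null mice 8637, 9210 and 9121 and at 1082 and 1131 CPM in wildtype mice 9055 and 9056. Null mouse 8637 lay between the wildtype mice, and mouse 9121 was lowest. The log2 fold change was -0.14 (SE 0.158, 95% interval -0.52 to 0.24, adjusted p = 0.604), so no direction can be given for Kl. With 1 mouse left out it ran from -0.21 to -0.05. It was 0.018 without TMM scaling, a setting that moved the median of all genes to 0.17.

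Fgfr1 (chr8:25513654-25575718, plus strand) is an FGF receptor that klotho pairs with. It was measured at 83.6, 81.2 and 83.4 CPM in null mice 8637, 9210 and 9121 and at 70.1 and 70.4 CPM in wildtype mice 9055 and 9056. The values were close together within each genotype and higher in every null mouse, with a log2 fold change of 0.23 (SE 0.0781, 95% interval 0.05 to 0.42, adjusted p = 0.143). Kl counts were 13.2, 12.9 and 10.4 times Fgfr1 counts in null mice 8637, 9210 and 9121 and 15.4 and 16.1 times in the wildtype mice 9055 and 9056. This ratio was lower in 3 of 3 null mice, with an exact permutation p of 0.1 (0.2 adjusted).

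Pth1r (chr9:110722085-110747145, minus strand), the parathyroid hormone receptor, was measured at 656, 603 and 561 CPM in null mice 8637, 9210 and 9121 and at 740 and 911 CPM in wildtype mice 9055 and 9056. Every null mouse lay lower, while the wildtype mice were themselves far apart (825 ± 121 CPM, SD, n = 2, against 607 ± 48.0 CPM, SD, n = 3). The log2 fold change was -0.44 (SE 0.145, 95% interval -0.79 to -0.09, adjusted p = 0.140), with an adjusted p of 0.125 by edgeR's exact test and 0.0368 by DESeq2.

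**Figure D3:**
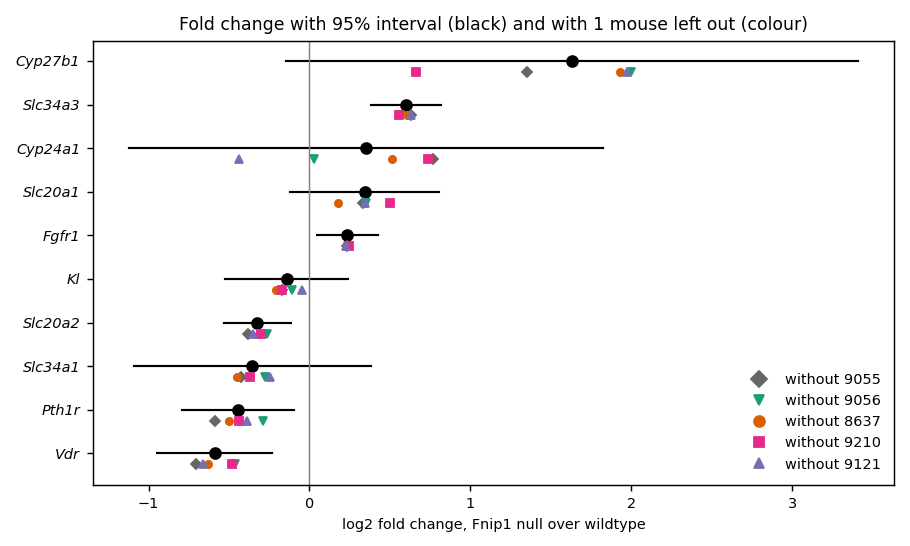
Log2 fold change of Fnip1 null over wildtype (horizontal axis) for the 10 genes, with its 95% interval in black from all 5 mice and the value with each mouse left out in colour. With a mouse left out Slc34a3 stays between 0.56 and 0.63 and Fgfr1 between 0.23 and 0.25, Cyp27b1 drops to 0.67 without mouse 9210, and Cyp24a1 drops to -0.44 without mouse 9121.

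A wider list of 60 genes of the same pathways was read from the same test. Of these, 50 were tested, 30 with a positive and 20 with a negative log2 fold change, with a median of 0.11. Past the FDR of 5% with a 2-fold change there were 2 of the 50, Gc and Trpv5, against 0.526% of all genes tested, and both rose (0.404% of all genes). At an unadjusted p below 0.05 there were 18 of the 50, against 25.1% of all genes. The groups did not overlap for 21 genes that were higher, against 22.9% of all genes, and for 6 that were lower in null mice, against 23.0%. At the FDR alone, edgeR's exact test called 9 of the 50, against 9.77% of all genes.

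Gc, the carrier of vitamin D in plasma, which the proximal tubule takes up as a protein and which is made mainly in liver, was measured at 68.8, 104.8 and 147.0 CPM in null mice 8637, 9210 and 9121 and at 17.5 and 17.4 CPM in wildtype mice 9055 and 9056. It rose 6.12-fold (log2 2.61, SE 0.324, adjusted p = 0.0410), and the log2 fold change ran from 2.31 to 2.85 with 1 mouse left out. Trpv5, the calcium channel of the distal tubule, was measured at 44.8, 59.1 and 44.0 CPM in null mice 8637, 9210 and 9121 and at 19.7 and 21.4 CPM in wildtype mice 9055 and 9056. It rose 2.40-fold (log2 1.26, SE 0.161, adjusted p = 0.0411). Both calls were lost without mouse 9210, 9055 or 9056, where Gc had adjusted p-values of 0.166, 0.213 and 0.530 and Trpv5 of 0.126, 0.213 and 0.517.

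Of 6 calcium transport genes known to respond to vitamin D, 1 passed the test and rose, against 0.404% of all genes, and 0 fell. Fold changes were positive for 5 of them (median 0.71 on the log2 scale). There were 4 at an unadjusted p below 0.05 (25.1% of all genes), and 4 lay higher in every null mouse (22.9% of all genes). Beside Trpv5, the largest was the related channel Trpv6, at 2.59, 3.92 and 3.80 CPM in null and 1.86 and 1.54 CPM in wildtype mice (log2 1.01, SE 0.286, adjusted p = 0.113). Of 12 genes of vitamin D supply and receptor partners, 11 were tested, 2 had a positive and 9 a negative fold change (median -0.12), and only Gc passed the test. Cyp2r1, a liver-type vitamin D hydroxylase, was near the floor at 1.24, 1.55 and 1.64 CPM in null and 0.186 and 0.629 CPM in wildtype mice (log2 1.81, SE 0.492, adjusted p = 0.108, and 0.0105 by edgeR's exact test).

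Among 19 phosphate transport partners 18 were tested, none passed in the quasi-likelihood test, 7 had an unadjusted p below 0.05 (25.1% of all genes), and 14 had positive fold changes (median 0.18). The largest fold changes were in Ip6k3, an inositol phosphate kinase, at 1.002, 0.773 and 1.37 CPM in null and 0.435 and 0.286 CPM in wildtype mice (log2 1.54, SE 0.483, adjusted p = 0.131), and in Stc2, a stanniocalcin, at 3.24, 3.86 and 3.85 CPM in null and 1.802 and 1.888 CPM in wildtype mice (log2 0.98, SE 0.223, adjusted p = 0.0862, and 0.0245 by edgeR's exact test). Chosen after its values were seen, the transporter Slc17a1 stood at 630, 473 and 354 CPM in null mice and 865 and 1007 CPM in wildtype mice (log2 -0.95, SE 0.241, adjusted p = 0.102, and 0.0113 by edgeR's exact test).

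Of 15 genes of the FGF23 and klotho arm 10 were tested and none passed in the quasi-likelihood test, with 3 at an unadjusted p below 0.05 (25.1% of all genes) and 6 positive fold changes (median 0.11). Egr1, an immediate early gene downstream of FGF receptors, was at 6.36, 6.48 and 18.7 CPM in null and 4.598 and 2.002 CPM in wildtype mice (log2 1.69, SE 0.623, adjusted p = 0.168), with mouse 9121 well above the rest. Fgfr2 was at 33.2, 50.8 and 46.2 CPM in null and 26.8 and 22.7 CPM in wildtype mice (log2 0.81, SE 0.199, adjusted p = 0.0967, and 0.0107 by edgeR's exact test). Of 8 genes of parathyroid hormone and calcium sensing 5 were tested and none passed in the quasi-likelihood test, with 1 at an unadjusted p below 0.05 (25.1% of all genes). That was Casr, the calcium-sensing receptor, at 147.7, 147.4 and 138.6 CPM in null and 102.8 and 90.9 CPM in wildtype mice (log2 0.58, SE 0.0944, adjusted p = 0.0602, and 0.00363 by edgeR's exact test). Adcy6, an adenylyl cyclase, had a log2 fold change of 0.20 (adjusted p = 0.234).

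The 10 wider genes that were not tested had too few counts. Fgf23, Mepe, Pth and Pth2r had 0 counts in every mouse, and Phex, Dmp1 and Pthlh at most 2. Klb had 0 to 10 and Rxrg 5 to 19 counts. Slc17a2 had 174 counts in mouse 9121 and 4 to 7 in the other 4 mice.

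**Figure D4:**
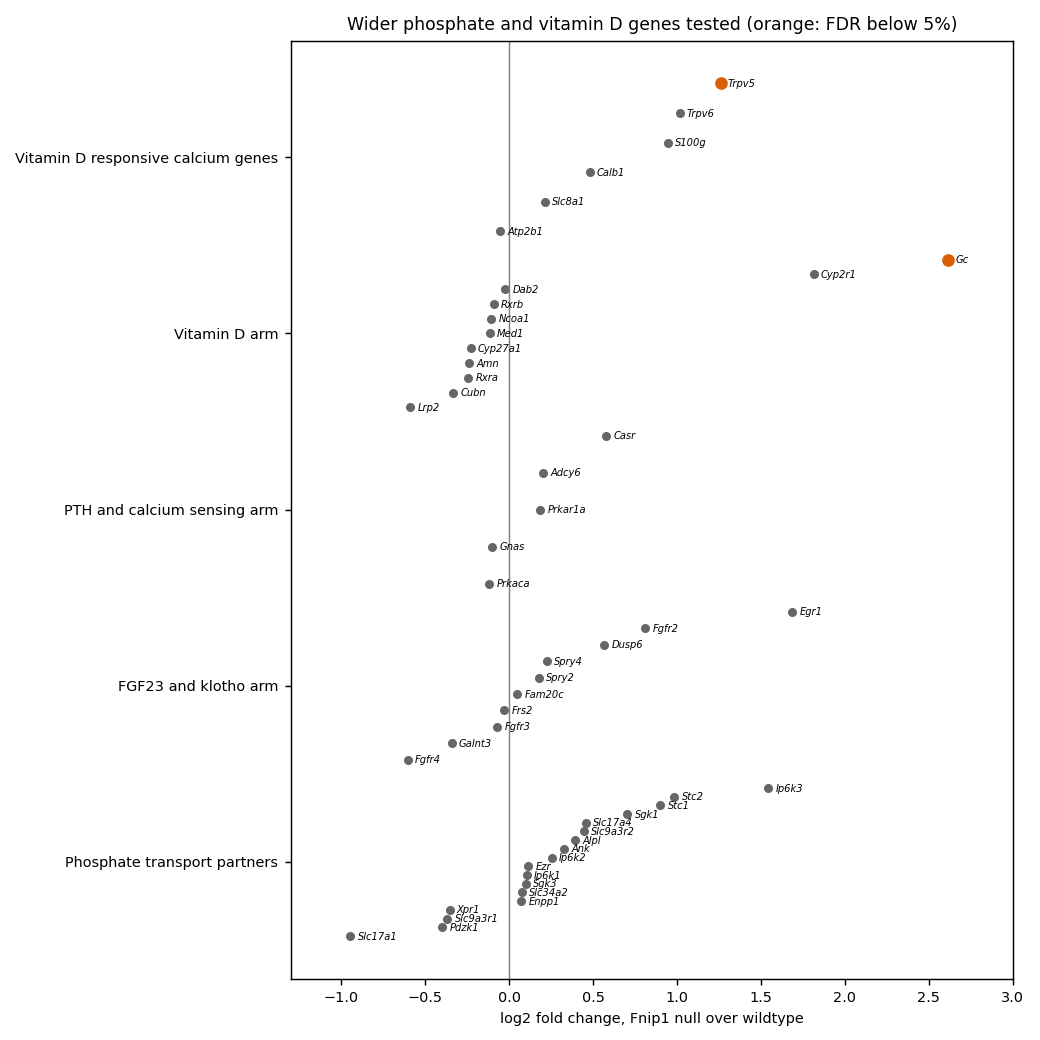
Log2 fold change of Fnip1 null over wildtype (horizontal axis) for the 50 tested genes of the wider list, 1 point per gene in 5 groups, with genes past an FDR of 5% in orange. Gc at 2.61 and Trpv5 at 1.26 are the only orange points, and 9 of the 11 vitamin D arm genes lie left of 0.

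Markers of the cell types in which these genes act differed between the genotypes to different extents. The 12 general proximal tubule markers summed to 8684 to 10491 CPM in null and 9647 to 10032 CPM in wildtype mice. The ratio of means was 0.972, and none of the 12 was called. The sum holds shifts in both directions. Of the 12, 5 lay higher in every null mouse (22.9% of all genes), among them Gatm at 1.54-fold. Another 2 lay lower in every null mouse (23.0% of all genes), among them Slc3a1 at 0.690-fold. The 5 markers of the straight S3 segment summed to 353 to 1330 CPM in null and 2353 to 2528 CPM in wildtype mice, and none was called. Slc7a13 of that list was at 4.17 CPM in mouse 9121 and at 202 to 1377 CPM in the other 4 mice. Slc5a1 (log2 -0.07) and Slc22a13 (log2 -0.37) of that list overlapped between genotypes. Slc22a13 was highest in null mouse 9121, at 94.6 CPM. Slc34a1, Slc34a3, Vdr, Pth1r and Cyp27b1 are genes of the proximal tubule, and the part of its segments in their values was not tested.

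The 4 distal convoluted tubule markers summed to 1244 to 1391 CPM in null and 883 to 995 CPM in wildtype mice, a ratio of 1.39. Most of this sum was Slc12a3, and none of the 4 was called. Pvalb of this list overlapped between genotypes (log2 -0.02) and was highest in wildtype mouse 9056, at 19.6 CPM. Trpv5, Casr and Kl are known from the distal nephron, and the groups overlapped for Kl. The part of the distal cells in the values of Trpv5, Casr and Kl was not tested. The summed levels of collecting duct (ratio of means 1.56) and intercalated cell markers (1.75) were also higher in every null mouse, with 0 of 5 called in each list. Against its list, Avpr2 of the collecting duct was lower in every null mouse, and Slc26a4 of the intercalated cells overlapped. Tubular injury markers summed to 1931 to 2805 CPM in null and 809 to 822 CPM in wildtype mice, most of it Spp1, with 0 of 4 called and Krt20, at 0 counts in wildtype mouse 9056, not tested.

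The summed levels of endothelial (5 genes, ratio of means 1.56) and fibroblast and mural cell markers (6 genes, 2.04) were higher in every null mouse, though the groups overlapped for Pecam1, Cdh5, Egfl7 and Col3a1. Summed levels of the thick ascending limb (5 genes, 1.12), leukocytes (8 genes, 1.19) and adipocytes (4 genes, 14.6) overlapped between genotypes. In the leukocyte list, 6 of the 7 tested genes had positive fold changes (median of the 7 on the log2 scale 1.43), and Csf1r, which had the highest CPM of the list in every mouse, was lower in every null mouse. None of the genes tested in these 5 lists was called. Cd79a, at 0 counts in all null mice, and Plin1 were not tested.

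**Figure D5:**
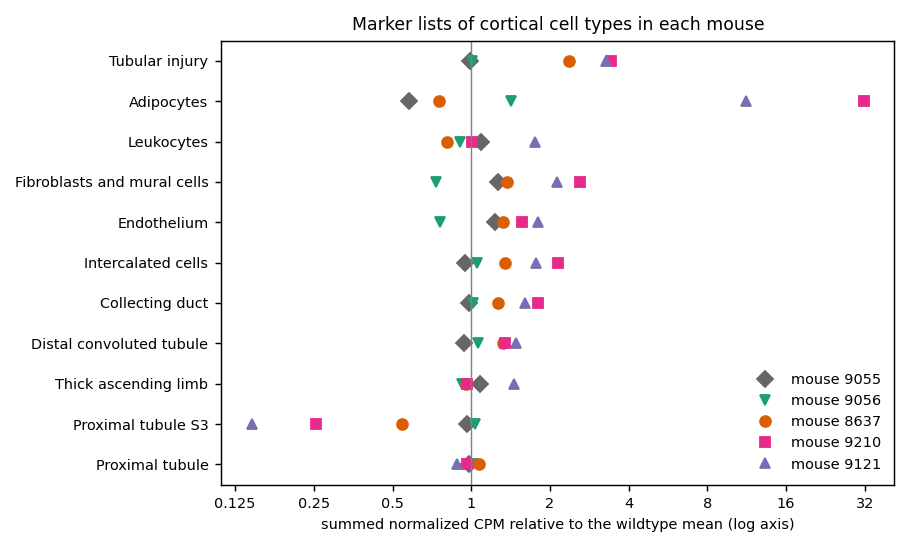
Summed normalized CPM of 11 of the marker lists in each mouse, relative to the wildtype mean (horizontal, log axis), 1 point per mouse. Null mice lie at 0.883 to 1.07 of the wildtype mean for general proximal tubule markers, at 0.145 to 0.545 for S3 markers and at 1.32 to 1.48 for distal convoluted tubule markers.

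The genes most like a member were sought for the 3 members with the largest absolute fold change, as the smallest root mean square difference of centred log2 CPM over the 5 mice among 10995 genes with at least 5 CPM. For Slc34a3 these were Gatm (0.0326), Sec14l1 (0.0366) and Casr (0.0464), where Gatm makes the creatine precursor in the proximal tubule. For Vdr they were Cecr2 (0.0324), 0610040F04Rik (0.0380) and 2200002D01Rik (0.0542). For Cyp27b1 they included 8430408G22Rik (0.312) and Gm7325 (0.353), both with their highest value in mouse 9210. The likeness is a description over 5 mice with a shared genotype difference.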

How the data were processed

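RNA was extracted by the study from flash-frozen cortical kidney tissue, 1 library per mouse. The authors removed low-quality reads, used TopHat 2.1.0 to align the rest to UCSC mm10, and took HTSeq 0.6.1 to count reads for each gene symbol. Raw counts were deposited. Gene counts per mouse were 15799114 to 19132145. The HTSeq summary lines (39.0% to 42.8% of each library not assigned to a gene) were left out of totals and tests. The exact Poisson intervals and the floors cover counting error only. The intervals of fold changes rest on the standard errors of the quasi-likelihood test, so they include the spread between mice. The kit is not stated to mark strand.

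Counts were scaled by TMM (factors 0.914 to 1.09) and tested with edgeR 4.0.16 under R 4.3.3 (with limma 3.58.1): estimateDisp, glmQLFit with the newer quasi-likelihood method (legacy off, which is not the default of that version) and glmQLFTest. A gene was tested with at least 10 counts in at least 3 mice (13874 genes), with Benjamini-Hochberg adjustment and a call at an FDR of 5% and 2-fold. Each standard error is the fold change over the square root of its F value. Ratios used counts plus 0.5 and an exact permutation test. The tests were checked on simulated data. Each replicate is a separate mouse. The p-values of fold changes set a difference against the spread between mice, and the permutation p-values come from relabelling the mice.

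Alternatives were DESeq2 1.42.0, the exact test and the likelihood ratio test of edgeR, legacy quasi-likelihood, library size or RLE scaling, 2 other filters and leaving out each mouse, which kept the 13874 genes. Overlap of the groups under other scalings and without each mouse was added after seeing the data. Coordinates and exon lengths are from GENCODE M21 on GRCm38, matched by symbol, and promoter sequences from RefSeq on GRCm38.p6. The 10 genes, the wider list and the marker lists were chosen with earlier results of these data known. The genes named are the 10, Fnip1, wider genes past the FDR of 5%, the 2 largest changes in each wider group, wider genes not tested, and the 3 genes most like each of 3 members. Some items of these lists are not reported here.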

Additional observations from a re-analysis of the deposited data

How the results depend on the processing

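The count of genes called was 73. It was 482 with DESeq2, 565 with the exact test of edgeR, 628 with its likelihood ratio test and 0 to 911 with 1 mouse left out: 911 without mouse 8637, 138 without 9121 and 0 without 9210, 9055 or 9056, where edgeR's quasi-likelihood test gave 2053, 2465 and 1225 genes at an unadjusted p below 0.05. No member was called with a 2-fold change under any setting. Of the wider list 2 genes were called, 5 with the likelihood ratio test, and 0 to 6 with 1 mouse left out (6 without 8637, 0 without 9210, 9055 or 9056). Of 130 member values under 13 settings, 117 kept their direction and side of the threshold, 11 also passed the FDR and 2 reversed. Cyp24a1 ran from -0.44 (without mouse 9121) to 0.77 with 1 mouse left out, and Kl was 0.018 with library size alone. Library size alone moved the median log2 fold change of all genes to 0.17, against 0.0035. The number of members whose groups did not overlap was 7 or 8 under these scalings and without each mouse, against 45.9% to 68.4% of all genes. No ratio reversed with pseudocounts of 0 or 1 or with a mouse left out, but the ratio of Cyp24a1 to Cyp27b1 ran from -2.19 (without 9121) to -0.051 (without 9210). The cause of these differences was not tested. Without a wildtype mouse, 1 is left and is assumed to vary like the others. The mice carry their own numbers. No paired analysis was possible because the genotypes share no replicate number.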
